A study of Mus musculus with 17 samples.

Results

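The DUOX and NADPH oxidase system was followed here through 10 genes: the dual oxidases Duox1 and Duox2, their maturation factors Duoxa1 and Duoxa2, the oxidases Nox1, Nox4 and Cybb, and the subunits Noxo1, Noxa1 and Cyba. They were found by gene name among 43346 genes in the deposited table, and all 10 had counts in all 17 libraries. They were chosen for their function and because Duox2 was known to be among the most abundant genes of these libraries, so their levels are given as a description, with no test. In this mouse study of extrahepatic cholangiocarcinoma, a malignancy of the biliary tree beyond the liver, total RNA of bile duct tissue was sequenced. All 17 samples carry 1 label, bile duct, and no genotype, strain, treatment, time or age that would set samples apart. The table names each library by a code and a running number. There are 6 codes, of which R62848, R62850, R63289, R63496 and R63500 cover 3 libraries each and R63494 covers 2. No source used here explains the codes, and no name matched a sample title, so libraries are named by their columns and no comparison of conditions was made.

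NADPH oxidases are membrane enzymes that carry electrons from NADPH across a membrane to oxygen, which yields superoxide or hydrogen peroxide outside the cytosol. DUOX1 and DUOX2 release hydrogen peroxide at the apical surface of epithelia, where it takes part in mucosal defence, and each reaches the surface only together with its maturation factor, DUOXA1 or DUOXA2. NOX1 is an epithelial oxidase that needs an organizer, NOXO1, and an activator, NOXA1, whereas CYBB (also called NOX2) is the oxidase of phagocytes and NOX4 is active without cytosolic subunits. CYBA, also called p22phox, is the small membrane subunit that NOX1, NOX4 and CYBB share, and that DUOX enzymes do not need.

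The 17 libraries held 16400556 to 24152314 counts each (median 17886041). All 10 epithelial markers (keratins, Epcam, Cdh1 and others) were counted in every library, with a summed level of 5895 to 9066 CPM. CPM are counts relative to library sizes scaled with TMM, a correction for differences in composition. The libraries of R62850 stood apart through 9 pancreatic acinar markers, at 4776 to 110360 CPM summed against 0.912 to 30.1 CPM elsewhere. The libraries of R63494 had the lowest summed levels of 7 fibroblast markers (2540 and 2802 CPM, against 4158 to 11226 CPM in the others) and the highest of 6 heat shock genes (4409 and 4646 CPM, against 1012 to 3418 CPM). Y-linked genes had counts only in R62850 and R63494. In bulk tissue, fewer cells of a type and less RNA per cell cannot be told apart.

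4 of the members lie side by side on chromosome 2 (mm10, 122279247 to 122347972), in a cluster of 68726 bases. Duox2 (122279247 to 122298165, minus strand) and Duoxa2 (122298900 to 122302885, plus strand) point away from each other, with 734 bases between them by the table's positions. In RefSeq the start sites of this pair lie 673 bases apart, and the GENCODE M21 annotation extends Duox2 to 122298449. Duoxa1 (122302191 to 122313730, minus strand) and Duox1 (122315672 to 122347972, plus strand) form a second such pair, with 1941 bases between them. Duoxa1 and Duoxa2 overlap tail to tail by 695 bases, of which 682 are exonic in both. The bases upstream of 3 of these genes are shown because the genes share a cluster while their levels, given further on, differ widely. Each sequence is the 250 bases before the RefSeq start site on GRCm38.p6, read 5′ to 3′ on the gene's own strand, and capitals mark matches to the motifs named after them. They lie at chr2:122298650-122298899 on the plus strand for Duoxa2, chr2:122313731-122313980 on the minus strand for Duoxa1 and chr2:122315422-122315671 on the plus strand for Duox1.
Duoxa2: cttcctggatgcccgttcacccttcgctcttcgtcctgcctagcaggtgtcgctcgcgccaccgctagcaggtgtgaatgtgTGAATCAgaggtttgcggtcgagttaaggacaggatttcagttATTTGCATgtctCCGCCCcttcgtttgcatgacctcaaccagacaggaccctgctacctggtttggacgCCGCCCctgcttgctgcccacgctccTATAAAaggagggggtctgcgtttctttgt
Duoxa1: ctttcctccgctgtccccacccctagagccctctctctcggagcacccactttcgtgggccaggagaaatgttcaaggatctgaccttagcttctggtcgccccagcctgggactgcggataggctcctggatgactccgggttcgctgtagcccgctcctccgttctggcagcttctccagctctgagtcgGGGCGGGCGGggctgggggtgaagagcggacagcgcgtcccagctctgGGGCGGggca
Duox1: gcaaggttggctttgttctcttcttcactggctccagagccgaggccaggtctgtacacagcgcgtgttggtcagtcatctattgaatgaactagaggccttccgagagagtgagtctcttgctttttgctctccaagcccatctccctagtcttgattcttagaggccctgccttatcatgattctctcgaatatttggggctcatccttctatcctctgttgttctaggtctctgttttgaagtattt
5 motifs were searched on both strands. The letters were TATAAA for the TATA box, CCAAT for the CCAAT box, GGGCGG for the GC box, ATTTGCAT for the octamer and TGANTCA for the AP-1 type site. They were found in 12.4%, 33.8%, 32.7%, 1.60% and 6.75% of 32851 RefSeq windows of the same length. The Duoxa2 window held a TATA box 30 to 25 bases before the start, GC boxes at 56 to 51 and 113 to 108 bases, an octamer at 125 to 118 and an AP-1 type site at 168 to 162. The Duoxa1 window held 3 GC boxes, of which those at 58 to 53 and 54 to 49 bases overlap, and the third lay at 10 to 5 bases. The Duox1 window held none of the 5. Its GC content was 47.6%, against 56.4% for Duoxa2 and 65.6% for Duoxa1. A match describes these letters only and shows no binding.

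Per gene length, the membrane subunit Cyba and the DUOX2 pair stood far above the other members. Levels per length are RPKM, reads per kilobase of gene length scaled to the library total, computed from the counts. Cyba had the highest median (478 RPKM, range 395 to 645, mean 495 ± 82.6 SD, n = 17). Duox2 followed (317, 224 to 448, mean 318 ± 65.5 SD, n = 17), and then Duoxa2 (291, 207 to 398, mean 298 ± 59.4 SD, n = 17). Below them stood Noxo1 at 75.3 RPKM (46.0 to 88.8), Duoxa1 at 36.9 (24.8 to 45.5), Noxa1 at 28.8 (17.8 to 39.1) and Nox1 at 20.7 (14.2 to 48.4). The levels of Noxo1, Duoxa1 and Duoxa2 may include or lack reads from exons shared with overlapping genes, as given further on. The lowest were Cybb at 7.93 RPKM (4.68 to 13.2), Nox4 at 1.64 (0.348 to 2.92) and Duox1 at 1.05 (0.282 to 1.59). The ranges of neighbours in this order overlapped for Cyba and Duox2, Duox2 and Duoxa2, Duoxa1 and Noxa1, Noxa1 and Nox1, and Nox4 and Duox1. Within single libraries Cyba stood above Duox2 in 17 of 17, whereas Noxa1 stood above Nox1 in 9 of 17. By RPKM Cyba ranked 73, Duox2 139 and Duoxa2 147 among all genes of the table, and by CPM, which does not account for length, Duox2 ranked 12. RPKM carry no TMM correction. The lowest RPKM of Duox2 and of Duoxa2 were in R62850_3, which had the highest acinar sum (110360 CPM). By CPM the lowest libraries were R62850_1 for Duox2 and R62848_2 for Duoxa2.

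**Figure D1:**
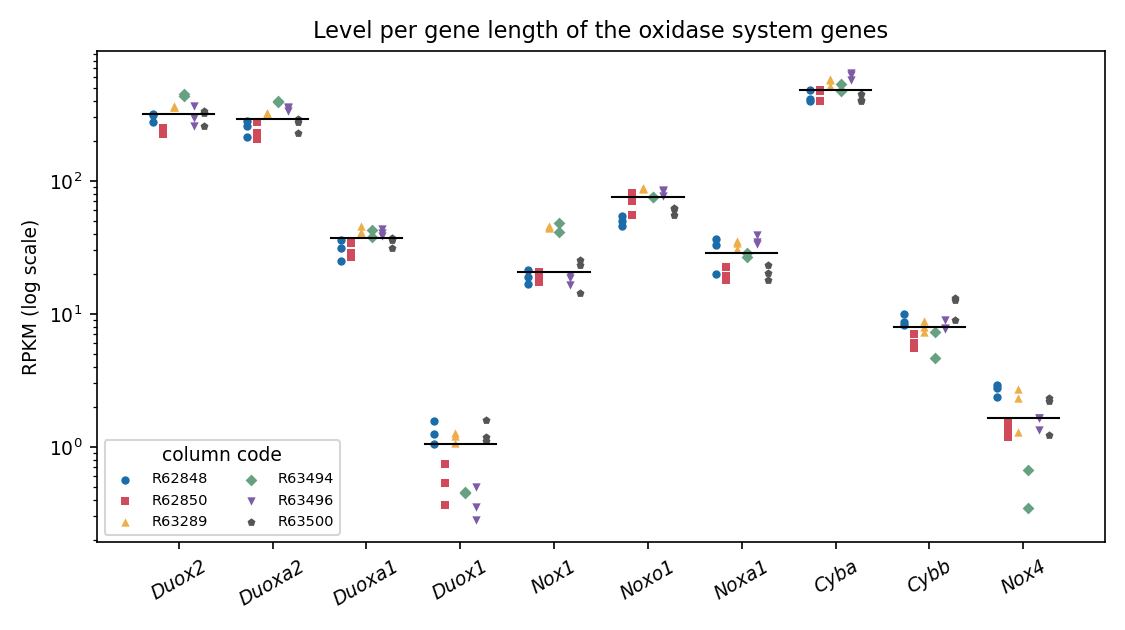
Level of each of the 10 genes per gene length (RPKM, log scale), 1 point per library, with colour and shape for the column code and a bar for the median of 17 libraries. Cyba, Duox2 and Duoxa2 lie above 200 RPKM in every library, and Duox1 lies between 0.282 and 1.59 RPKM.

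All 10 members differed between column codes (edgeR quasi-likelihood F test over all code terms, Benjamini-Hochberg adjusted p below 0.05 over 19412 genes). The same test called 8194 of these genes, which is 42.2% of them. The labels do not say whether samples come from separate animals, so the p-values measure only the spread between these libraries, which may be technical. Of a member's variance in log2 CPM, a median of 82.1% lay between codes, against a median of 58.6% over all genes tested. No background of genes at like levels was taken, so the part of level in this gap was not tested. The SD of log2 CPM over the 17 libraries had a median of 0.33 for the members and 0.34 for all genes. A difference between codes says that libraries of a code resemble each other, and not what a code is.

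Duox2, the oxidase of the most abundant pair, had 1517 CPM in its lowest library (R62850_1), a median of 2008 CPM and 2911 CPM in its highest (R63494_1), a 1.92-fold range. Both libraries of R63494 (2888 and 2911 CPM) stood above the 15 others, of which the highest had 2278 CPM. Of the 19412 genes tested, 796, or 4.1%, had both R63494 libraries above all others in the same way. The 3 libraries of R62850 were low, at 1517 to 1688 CPM, and overlapped with single libraries of R63496 and R63500. Of the variance of Duox2, 80.3% lay between codes (edgeR quasi-likelihood F test, adjusted p = 0.000301). The libraries of R63494 also had high epithelial markers, at 8260 and 8806 CPM summed. Counts of Duox2 over those of the summed epithelial markers had a median ratio of 0.285, from 0.178 (R63500_2) to 0.352 (R63494_1). The R63494 ratios (0.328 and 0.352) were within the range of those of R63289 (0.316 to 0.340) or just above it, and R62850 stayed low at 0.192 to 0.239. Beside the acinar markers in R62850 and the low fibroblast and high heat shock levels in R63494, the part of these in the level of Duox2 was not tested.

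Duoxa2, which carries DUOX2 out of the endoplasmic reticulum, had 335 CPM in its lowest library (R62848_2), a median of 456 CPM and 650 CPM in its highest (R63494_2). As with Duox2, both R63494 libraries (643 and 650 CPM) were above all others (up to 562 CPM). R63496 (528 to 562 CPM) and R63289 (482 to 506 CPM) came next, without overlap with the 9 libraries of R62848, R62850 and R63500 (335 to 456 CPM). Over all genes tested, 0.355% had the 8 libraries of R63289, R63494 and R63496 above the 9 others. The difference between codes had an adjusted p of 0.000164 in edgeR's quasi-likelihood test. The level of Duoxa2 per length depends on how reads in exons shared with Duoxa1 were counted, as described below. As counted, Duox2 and Duoxa2 were at nearly the same level per length. Their median RPKM ratio, Duox2 over Duoxa2, was 1.11, and Duox2 was higher in 14 of 17 libraries. This ratio stayed at 1.10 to 1.28 in R62848, 1.10 to 1.17 in R63289, 1.11 to 1.13 in R63494 and 1.13 to 1.16 in R63500. It was lower and more spread in R63496 (0.761 to 1.04) and R62850 (0.856 to 1.10). The SD of the log2 ratio was 0.20, against 0.28 for the log2 CPM of either gene.

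**Figure D2:**
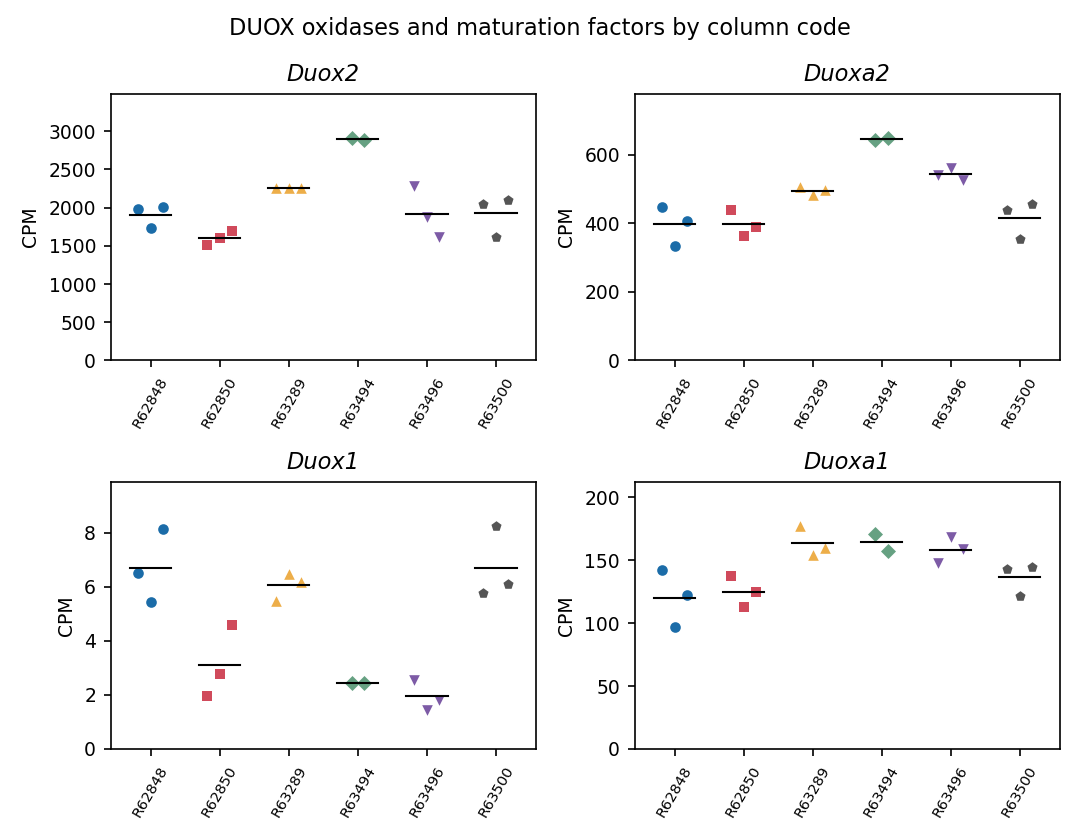
CPM (TMM-scaled) of the dual oxidases and their maturation factors, 1 point per library, grouped by column code, with a bar for the mean of each code; each panel has its own axis from 0. Both R63494 libraries are the highest for Duox2 and Duoxa2, and for Duox1 the libraries of R62850, R63494 and R63496 lie at 4.59 CPM or below.

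Duox1, the second dual oxidase, was a small fraction of Duox2 in every library. Its CPM ran from 1.45 in R63496_2 over a median of 5.44 to 8.23 in R63500_2. The lowest value rests on 26 counts, with an exact Poisson 95% interval of 0.950 to 2.13 CPM, and the highest on 148 counts, with an interval of 6.96 to 9.67 CPM. Such intervals cover counting error only. The 8 libraries of R62850, R63494 and R63496 (1.45 to 4.59 CPM) lay below the 9 of R62848, R63289 and R63500 (5.44 to 8.23 CPM), and the medians of these sets differed 2.52-fold. This division, with the same 8 libraries below the others, was found in 0.484% of all genes tested. Codes held 86.5% of the variance of Duox1 (edgeR quasi-likelihood, adjusted p = 0.000100), and its SD of log2 CPM, 0.80, was the largest of the members. R62850 was low for both dual oxidases, whereas R63494 was highest for Duox2 and among the low ones for Duox1. The RPKM of Duox2 was 303 times that of Duox1 in the median library, 162 times in R63500_2 and 1059 times in R63496_2.

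Duoxa1, the maturation factor named for DUOX1, stood far above its oxidase, with counts that may include reads of Duoxa2, as described below. It had 97.0 CPM in its lowest library (R62848_2), a median of 145 CPM and 177 CPM in its highest (R63289_1), and differed between codes (edgeR quasi-likelihood, adjusted p = 0.00671). The 8 libraries of R63289, R63494 and R63496 (148 to 177 CPM) stood above the 9 others (97.0 to 145 CPM), which is the division also seen in Duoxa2. Per length Duoxa1 was 36.0 times Duox1 in the median library, from 19.6 times in R63500_2 to 153.7 times in R63496_2. Its ratio to Duoxa2 moved less: counts of Duoxa2 were 3.21 times those of Duoxa1 at the median, from 2.86 to 4.13 times, with an SD of 0.13 in log2. The highest of these ratios were in R63494 (3.76 and 4.13) and overlapped with no other code.

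How far Duoxa1 and Duoxa2 can be separated depends on how reads in shared exons were counted, with the strand setting not given in the sources used here. The 682 shared exonic bases make up 17.1% of the exonic bases of Duoxa1 and 42.8% of those of Duoxa2. Among 31 genes whose exons lie wholly inside exons of a gene on the opposite strand with a median of at least 1000 counts, 28 had a median of at least 10 counts, with a median of 253 counts. Counts of such inner genes were thus seldom absent. Their own transcription would give the same, so this cannot show whether reads were shared. A part of unknown size of the counts of Duoxa1, which could be all of them, may be reads of Duoxa2. Some counts of Duoxa2 may likewise be reads of Duoxa1. Reads in the shared bases may also have been left out of both genes, which would lower their counts. The levels of Duoxa1 and Duoxa2 carry these limits, as do the ratios of Duoxa1 to Duox1 and of Duox2 to Duoxa2. The division of libraries that Duoxa1 and Duoxa2 share cannot be told apart from shared reads.

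**Figure D3:**
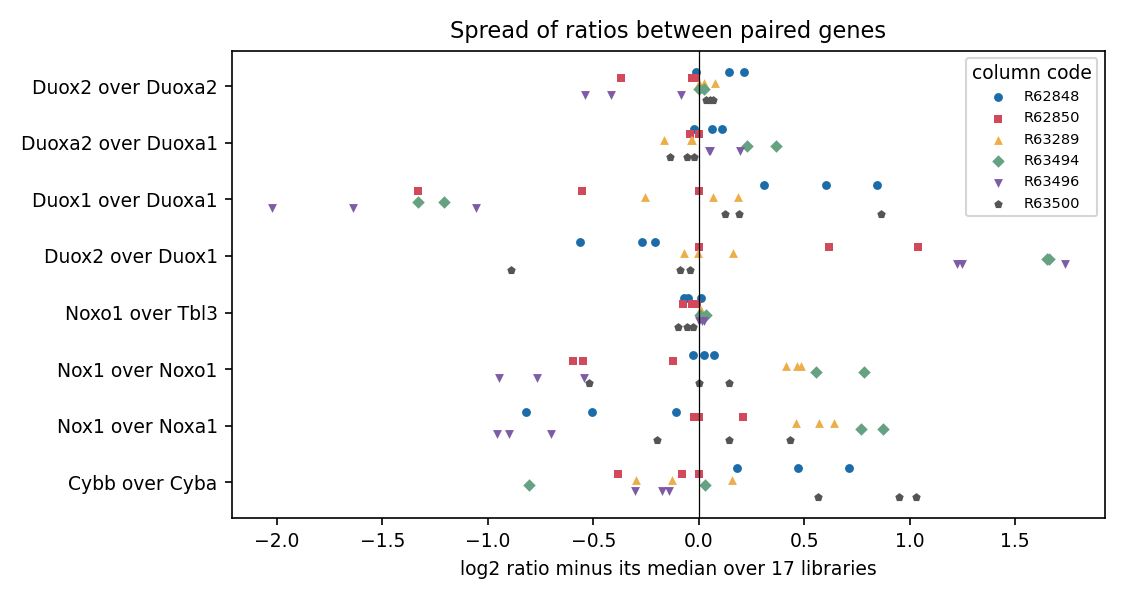
Log2 ratio of each pair of genes minus its median over 17 libraries, 1 point per library, with colour and shape for the column code. Noxo1 over Tbl3 stays within a 1.10-fold range, Duoxa2 over Duoxa1 within 1.44-fold and Duox2 over Duoxa2 within 1.69-fold, whereas Duox2 over Duox1 spans 6.18-fold.

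Nox1 encodes the catalytic subunit of the epithelial complex and lies on the X chromosome (134086421 to 134221956, minus strand). It had 46.1 CPM in its lowest library (R63500_2), a median of 69.6 CPM and 162 CPM in its highest (R63494_1). The values fell in 2 ranges with no library between them. The 5 libraries of R63289 and R63494 had 142 to 162 CPM, and the 12 others had 46.1 to 82.3 CPM, with medians that differed 2.31-fold. Of all genes tested, 0.515% had these 5 libraries above the 12 others. Of its variance, 90.1% lay between codes, and its adjusted p of 2.67e-06 (edgeR quasi-likelihood F test) was the lowest of the members. The summed level of the Y-linked genes was 0 in R63289, 176 and 208 CPM in R63494, and 158 to 183 CPM in R62850. The epithelial markers summed to 6651 to 7132 CPM in R63289, within the range of the codes low in Nox1. The part of sex or of epithelial content in the level of Nox1 was not tested.

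A part of Nox1 is shared with another gene: 399 exonic bases, 12.1% of its exonic length, lie in exons of Cstf2, a gene for an mRNA cleavage factor on the opposite strand. Cstf2 was also higher in these codes, at 97.7 to 113 CPM in R63289 and 103 to 130 CPM in R63494 against 61.1 to 89.6 CPM elsewhere. The ratio of Nox1 to Cstf2 counts was nevertheless higher in R63289 (1.26 to 1.47) and R63494 (1.25 and 1.38) than in the 12 others (0.702 to 1.09). The division of libraries was thus larger in Nox1 than in Cstf2.

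Noxo1, the organizer that brings the activator to NOX1, had 138 CPM in its lowest library (R62848_1), a median of 224 CPM and 261 CPM in its highest (R63289_1). All 3 libraries of R62848 (138 to 162 CPM) were below all others, the nearest of which had 162.05 CPM in R63500_2 against 161.8 CPM in R62848_3. All 3 of R63289 (255 to 261 CPM) were above the rest, of which the highest had 251 CPM. Among all genes tested, 1.64% were lowest in all 3 libraries of R62848 and 0.747% highest in all 3 of R63289. Codes held 91.3% of its variance (edgeR quasi-likelihood, adjusted p = 6.20e-06). These values cannot be assigned to Noxo1 alone, because 2122 of its exonic bases, 70.4%, lie in exons of Tbl3, a gene for a ribosome assembly factor on the opposite strand. Tbl3 showed the same order, lowest in R62848 (169 to 195 CPM) and highest in R63289 (294 to 302 CPM). The count ratio of Noxo1 to Tbl3 stayed between 0.805 and 0.883 in all 17 libraries. Noxo1 and Tbl3 therefore cannot be told apart in these counts.

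Noxa1, the activator of NOX1, lies on chromosome 2 (25085667 to 25095149, minus strand), away from the DUOX cluster. It had 28.2 CPM in its lowest library (R63500_2), a median of 47.2 CPM and 62.3 CPM in its highest (R63496_3). The libraries of R62850 (30.9 to 36.8 CPM) and R63500 (28.2 to 37.1 CPM) were low, together with R62848_1 at 31.9 CPM, whereas the other R62848 libraries had 52.7 and 58.2 CPM. The difference between codes passed the test (edgeR quasi-likelihood, adjusted p = 0.00168). Noxa1 shared 50 exonic bases with Entpd8, 3.09% of its own. It did not follow Nox1: the RPKM ratio of Nox1 to Noxa1 was 1.26 to 1.43 in R63289 and 1.56 and 1.68 in R63494, and 0.472 to 0.565 in R63496. The catalytic and the activator gene thus changed places in the order of levels between codes.

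**Figure D4:**
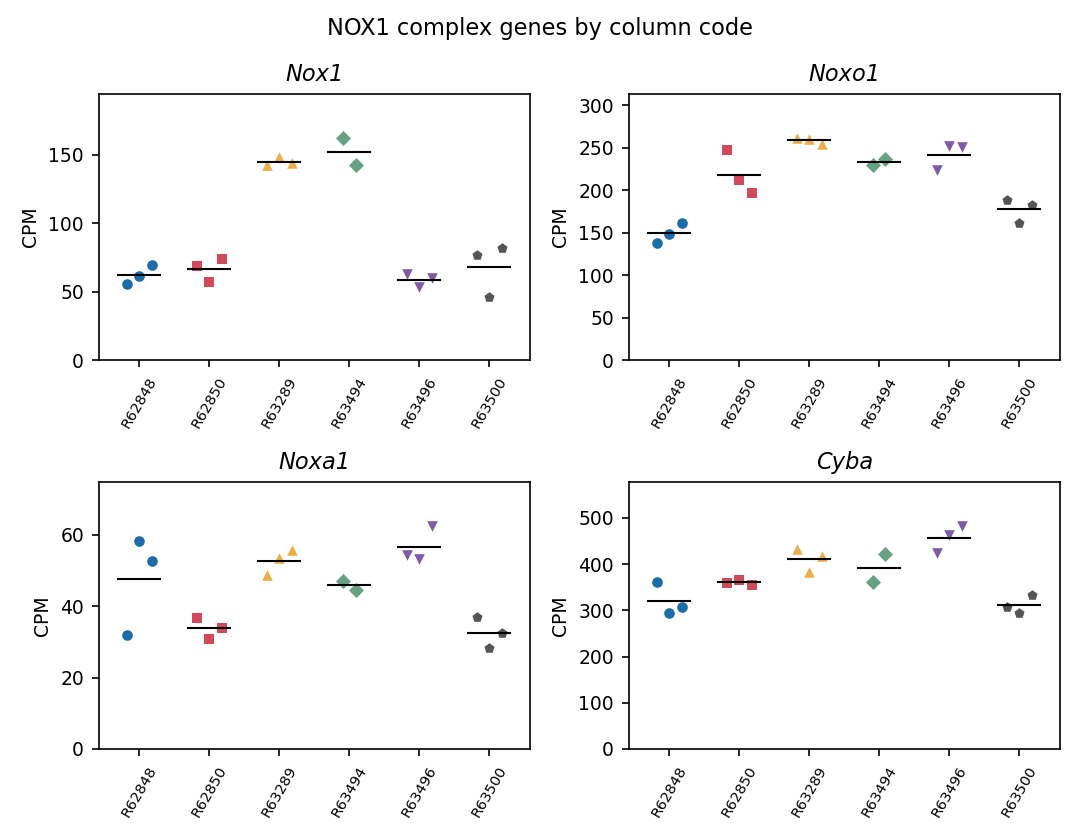
CPM (TMM-scaled) of the NOX1 complex genes, 1 point per library, grouped by column code, with a bar for the mean of each code; each panel has its own axis from 0. Nox1 stands at 142 to 162 CPM in R63289 and R63494 and at 46.1 to 82.3 CPM elsewhere. Noxa1 and Cyba do not share this division. The counts of Noxo1 do not show it either, but they cannot be told apart from those of Tbl3.

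Cyba, the membrane subunit common to NOX1, NOX4 and CYBB, lies on chromosome 8 (122424772 to 122432940, minus strand) and varied least of the members. It had 294 CPM in its lowest library (R63500_2), a median of 362 CPM and 482 CPM in its highest (R63496_3), a 1.64-fold range with an SD of 0.22 in log2. The 3 libraries of R63496 (425 to 482 CPM) were the highest as a code, with overlap into R63289, and R63500 (294 to 334 CPM) and R62848 (295 to 361 CPM) were the lowest. The difference between codes had an adjusted p of 0.000413 (edgeR quasi-likelihood). Per length Cyba exceeded each of its catalytic partners in every library, Cybb by a median of 65.5 times with a range of 32.0 to 114 times.

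Cybb, the catalytic subunit of the phagocyte oxidase, lies on the X chromosome (9435252 to 9487771, minus strand). It had 28.3 CPM in its lowest library (R63494_2), a median of 44.8 CPM and 75.7 CPM in its highest (R63500_3). Among codes R63500 was high (51.0 to 75.7 CPM), and R63494 (28.3 and 43.2 CPM) and R62850 (32.2 to 41.6 CPM) were low, and each overlapped with another code (edgeR quasi-likelihood, adjusted p = 0.00213). In R63500 Cybb was high while Cyba was low. The log2 ratio of Cybb to Cyba was -2.52 to -2.06 in R63500, -2.91 to -2.38 in R62848 and -3.90 to -3.06 in R63494. Its SD over all libraries was 0.50, against 0.35 for Cybb and 0.22 for Cyba. All 9 macrophage markers were counted in every library, with sums of 1446 to 1874 CPM in R63500 and 817 and 1050 CPM in R63494. The 8 neutrophil markers went the other way in R63500, where their sum was lowest at 280 to 508 CPM against 588 to 1741 CPM elsewhere. Of these, Ly6g was at 0 in R62850_1, and the other 7 had counts in every library. Counts of Cybb over the macrophage and neutrophil sum, the planned ratio, stayed within a 2.41-fold range (SD 0.36 in log2). Over the macrophage sum alone, which was not among the planned ratios, they stayed within a 1.69-fold range (SD 0.19). The part of these cells in the level of Cybb was not tested.

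Nox4, an oxidase known from fibroblasts, kidney and vessel walls, lies on chromosome 7 (87246096 to 87398710, plus strand) and had the widest range of the members, 8.13-fold. It had 2.99 CPM in its lowest library (R63494_1), a median of 13.6 CPM and 24.3 CPM in its highest (R62848_2). The lowest value rests on 50 counts, with an exact Poisson 95% interval of 2.22 to 3.95 CPM. Both R63494 libraries (2.99 and 5.85 CPM) were below the 15 others, of which the lowest had 10.2 CPM in R63500_2, and the libraries of R62848 were high at 19.9 to 24.3 CPM. Both R63494 libraries were below all others in 4.92% of all genes tested. Codes held 81.3% of the variance (edgeR quasi-likelihood, adjusted p = 0.000537). The 7 fibroblast markers, all counted in every library, were also lowest in R63494 and stood at 9596 to 10345 CPM summed in R62848. Over this sum, counts of Nox4 still spanned a 4.77-fold range (SD 0.53 in log2, against 0.76 for Nox4 itself). R63494_1 and R63500_2 had the lowest ratios among the libraries of their codes, at 0.00118 and 0.000907. In R63500 the fibroblast sum was high (9219 to 11226 CPM) while R63500_2 had the lowest level of Nox4 outside R63494. The part of fibroblasts in the level of Nox4 was not tested.

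**Figure D5:**
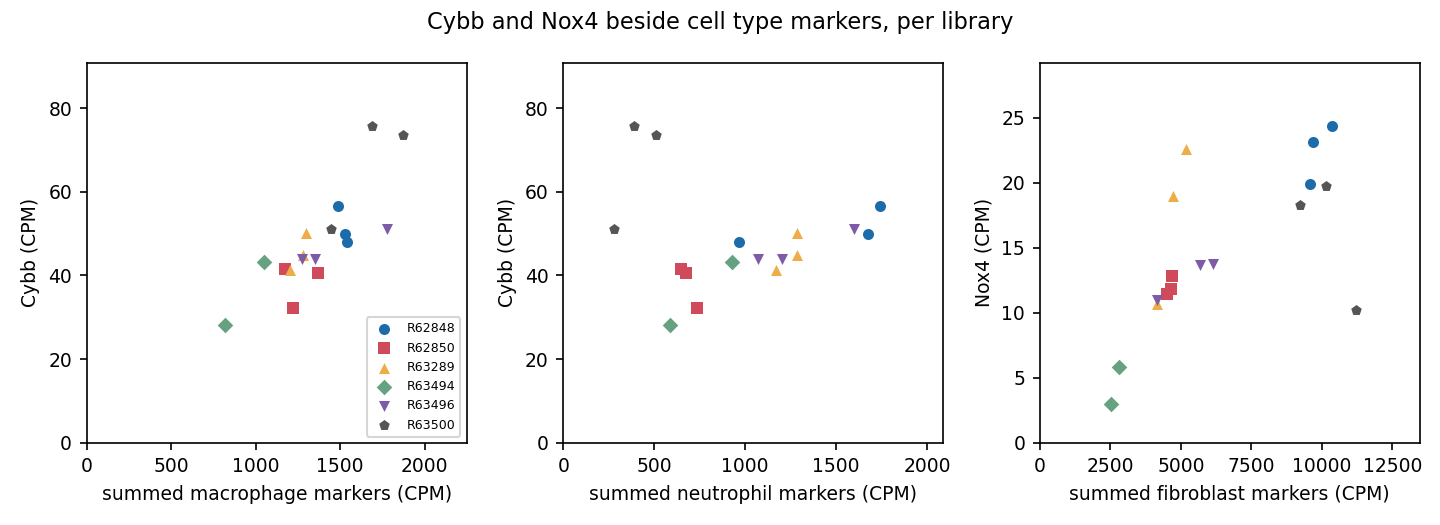
Cybb against summed macrophage markers and summed neutrophil markers, and Nox4 against summed fibroblast markers, all in CPM (TMM-scaled), 1 point per library, with colour and shape for the column code and axes from 0. The R63500 libraries, with 51.0 to 75.7 CPM of Cybb, have the lowest neutrophil sums, and both R63494 libraries are lowest for Nox4 and for the fibroblast sum.

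The genes most like 4 of the members over the 17 libraries were sought by proportionality, which is 1 when the ratio of 2 genes is constant. It is a description over libraries that share codes. For Duox2 they were Unc13b (0.928), Tmtc2, Plekha6, Nlrp10 and Fermt1 (0.898), of which Nlrp10 encodes a protein of the NOD-like receptor family. Duoxa2 reached 0.742 with Duox2 and ranked 129. For Nox1 they were Bcl2l14 (0.887), 2010007H06Rik, Nrgn, Mctp1 and Fer1l4 (0.839). For Nox4 they were Adamts5 (0.871), a matrix protease, Obsl1, Epha3, Cdh11, a cadherin of mesenchymal cells, and Fzd2 (0.859). For Cybb they were Emr1, which encodes the macrophage protein F4/80 (0.901), the protease gene Ctss, Mpeg1, a gene of macrophages, Racgap1 and Arhgap11a (0.847). Emr1 and Mpeg1 are among the macrophage markers used here.

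Of the other genes that work with these oxidases, 6 of the 8 tested differed between codes (edgeR quasi-likelihood, Benjamini-Hochberg adjusted p below 0.05), with the 42.2% of all genes as background. Ncf1, the organizer of the phagocyte oxidase, had a median of 44.0 CPM (25.5 to 75.6) and was highest in R62848 (57.2 to 75.6 CPM, against up to 54.3 CPM elsewhere). Rac2, the small GTPase of blood cells that activates it, had a median of 151 CPM and was lowest in R63500 (59.2 to 85.0 CPM, against 121 to 232 CPM elsewhere). Cybb, with its highest levels in R63500, thus moved apart from Rac2 there. How many of all genes were highest in R62848 or lowest in R63500 in this way was not counted. Ncf4, Cybc1, a chaperone of the CYBB and CYBA dimer, Hvcn1, a proton channel, and P4hb, a protein disulfide isomerase, were also called. Rac1, the GTPase that NOX1 uses (269 CPM, 1.32-fold range, adjusted p = 0.401 in the same edgeR test), did not pass. Nox3, an oxidase of the inner ear, had no counts in any library.

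Peroxidases that use hydrogen peroxide were scarce. Lpo, the lactoperoxidase of secretions, had a median of 0.602 CPM and did not pass the test (edgeR quasi-likelihood, adjusted p = 0.508). Mpo and Epx were too low to be tested, with counts in 4 and 3 of the 17 libraries. Among genes that remove hydrogen peroxide or superoxide, 14 of 15 tested differed between codes, with a median of 71.4% of variance between codes, against 42.2% called and a median of 58.6% over all genes. The epithelial glutathione peroxidase Gpx2 had a median of 629 CPM, the cytosolic peroxidase Gpx1 544 CPM and the peroxiredoxin Prdx1 1495 CPM. Sod3, an extracellular superoxide dismutase, was lowest in R63494 (40.0 and 45.0 CPM, against 58.2 to 117 CPM elsewhere), as was Nox4. Both R63494 libraries were below all others in 4.92% of all genes tested. Prdx6 was highest in R63500 (582 to 706 CPM) and lowest in R62850 (267 to 333 CPM). How many of all genes set these 2 codes apart in this way was not counted. Aqp3, a channel that lets hydrogen peroxide pass, was at 2.17 CPM and did not pass (edgeR quasi-likelihood, adjusted p = 0.430), and Aqp8 was not tested.

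Of 21 genes of mucosal responses, 17 differed between codes, with a median of 80.3% of variance between codes, against 42.2% called and a median of 58.6% over all genes. Like Duox2 and Duoxa2, 4 of the 21 were higher in both R63494 libraries than in all 15 others, which held for 4.1% of all genes tested. Among these were Pigr, the receptor that carries IgA across epithelia (10119 and 10994 CPM, against up to 9542 CPM), Nfkbiz, an inducible regulator of NF-kB targets (254 and 325 CPM, against up to 216 CPM), and Nod2, a sensor of bacterial peptidoglycan (41.3 and 44.1 CPM, against up to 28.1 CPM). Another 3 of the 21 were lowest there, against 4.92% of all genes: Saa3 (40.0 and 68.4 CPM, against 74.9 to 574 CPM), Saa2 and Reg3b, which encode acute phase and antibacterial proteins. Lcn2 (median 6176 CPM, adjusted p = 0.348 in the edgeR test), Reg3g, Il17rc and Myd88 did not pass. The list was chosen with results of these libraries known, so these counts are not independent evidence of a shared course with Duox2.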

How the data were processed

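RNA of 17 mouse bile duct samples was sequenced, and the authors deposited 1 table with gene positions, lengths, names and counts. The deposited counts are whole numbers of reads per gene, before any normalization, and 17 columns in another unit were left unused because no column could be tied to a single sample. STAR 2.6.1c, featureCounts, edgeR 3.40.2 and mm10 appear in the submitters' processing notes, without roles. No source used here gives the annotation release or strand setting.

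Counts were fitted in R 4.3.3 with edgeR 4.0.16: filterByExpr by code kept 19412 of 43346 genes, TMM factors, a robust quasi-likelihood fit and an F test on all code terms, with Benjamini-Hochberg adjustment and a threshold of 0.05. The test has no direction. Log2 CPM used a prior count of 2, also for the ratios given in log2; ratios of counts and RPKM used none. RPKM were computed from the counts, library totals and the table's gene lengths. Alternatives used DESeq2 1.42.0, limma 3.58.1, other scalings and filters, and fewer libraries. On simulated counts of 19412 genes, the test recovered 38.8% of genes planted at 1.5-fold, 74.6% at 2-fold and 93.9% at 4-fold, with 7 false calls. The simulated libraries were independent, followed the dispersion trend and had no difference in genes not planted. The false calls therefore do not give the error rate in the real libraries.

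The members, gene lists and tests were chosen with earlier results of these data known. Named are the members, genes of the lists, and the 5 genes outside the members with the highest proportionality to Duox2, Nox1, Nox4 and Cybb. Some genes of the lists are counted but not reported here by name. Overlapping genes, Y-linked genes and the divisions of codes into higher and lower sets were picked after their values had been seen. The ratio of Cybb to the macrophage sum alone was not among the planned ratios. Exon overlaps were taken from GENCODE M21, in which 33460 of the table's genes have the same position; 2 marker genes were matched by identifier where the table uses an older symbol. Upstream sequences are from RefSeq (GRCm38.p6, the build called mm10), with entries for all 10 members; that of Duox2 is not shown because an annotated Duox2 exon lies in it.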

Additional observations from a re-analysis of the deposited data

How the results depend on the processing

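All 10 members stayed below the threshold in each of the 26 alternatives: 4 other scalings, no filter on low counts, DESeq2, limma, leaving out each of the 17 libraries, and leaving out R62850 or R63494, of which the last was added after seeing the data. The highest adjusted p-values were 0.0390 for Nox4 and 0.0360 for Duox2 without R63494 (edgeR), and 0.0385 for Duoxa1 with scaling to the epithelial markers. The number of genes called, 8194 by edgeR, was 9529 with DESeq2 and 8508 with limma, and rose to 13780 when libraries were scaled to macrophage and neutrophil markers, a 71.0% background against which the members' count says little. Leaving out single libraries gave 7188 to 8531 genes. Among the 5 genes most like each anchor, deviations from code means kept 1 for Duox2, 0 for Nox1, 0 for Nox4 and 1 for Cybb. Proportionality of these deviations was nevertheless 0.550 to 0.885 for the 5 genes of Duox2 and 0.552 to 0.877 for those of Cybb, against 0.193 to 0.675 for those of Nox1 and 0.0934 to 0.594 for those of Nox4. The other 356 results kept their side of the threshold or, where no threshold applied, moved by less than a limit set for them. No paired analysis was possible because the labels give 1 group. Counts limit Duox1 and Nox4 most.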
